A study of Mus musculus with 32 samples.

Results

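The genes described here are 7 members of the HOX, MEIS and PBX homeobox families: Hoxb8, Hoxa7, Hoxa9, Hoxa10, Meis1, Pbx2 and Pbx3. They were chosen by name, with no measured value in the rule but with earlier results of these data known. All 7 were found among the 55487 gene identifiers of the series. Of the 7, 5 had counts in at least 1 library and 4 passed the filter on low counts and were tested: Hoxb8, Meis1, Pbx2 and Pbx3.

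RNA was sequenced from cultured mouse fetal liver progenitors that an estrogen-dependent HOXB8 (ER-HOXB8) had immortalised. The mutant line, hi-77-/-, had lost an upstream enhancer of Gata2 on both alleles, and the wild-type line, hi-77+/+, kept it. Cells received 1 ng/ml of interferon gamma (IFNg), 100 ng/ml of Pam3CSK4, both agonists, or vehicle, for 4 h. IFNg is a cytokine of T and natural killer cells, and Pam3CSK4 is a synthetic bacterial-type lipopeptide that activates Toll-like receptors. The 2 genotypes and 4 treatments gave 8 groups of 4 libraries, and all 32 libraries shared the ER-HOXB8 transgene, 1 uM b-estradiol, G418 at 500 ug/mL and SCF-conditioned medium. Each genotype was a single line, and the labels leave unsaid whether libraries within a group are from separate cultures. The p-values therefore cover only the spread among these libraries, which may be technical.

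HOX proteins are transcription factors named for their role in patterning the body axis, and several of them keep blood progenitors immature. They bind DNA weakly alone and more tightly in complexes with PBX and MEIS proteins, which belong to the TALE class of homeodomain proteins. In mouse marrow, forced HOXB8 or HOXA9 with MEIS1 blocks myeloid maturation, and the ER-HOXB8 system uses this: while estrogen is present, the fusion protein holds cells as dividing progenitors.

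Each library held 44.18 to 71.42 M expected counts, with counts in 17427 to 21034 genes. All 13 progenitor markers reached 1 CPM (counts scaled to 1 M per library with TMM normalisation) in every group, and 0 of 7 hepatocyte markers did. With vehicle the summed progenitor markers were alike, at 5865 to 5976 CPM in mutant and 5870 to 5989 CPM in wild-type libraries. Single progenitor markers differed, with 4 of 13 higher and 7 lower in mutant vehicle cells. Elane had 3.16 CPM in mutant and 26.7 CPM in wild-type vehicle cells, and Flt3 had 373 and 198 CPM. The genotypes also differed in markers of other lineages. With vehicle the summed erythroid markers lay at 359 to 396 CPM in mutant libraries and at 545 to 669 CPM in wild-type libraries, with 2 and 10 of 11 genes at 1 CPM or more. Mast cell and basophil markers summed to 64.0 to 73.3 CPM in mutant libraries and 335 to 388 CPM in wild-type libraries, with 5 and 6 of 8 genes at 1 CPM or more. Lymphoid markers summed to 132 to 134 CPM in mutant and 12.2 to 13.6 CPM in wild-type libraries, macrophage markers to 12.3 to 12.6 and 21.4 to 25.1 CPM, and stromal markers to 17.1 to 18.2 and 33.5 to 42.2 CPM. Gene by gene, 4 of 7 tested lymphoid markers were higher and 2 lower in mutant cells, and 2 of 3 tested macrophage markers were higher and 1 lower. Of 4 tested stromal markers 2 were higher and 2 lower, so single genes differ in direction from the sums. Of all tested genes 24.4% were higher and 29.3% lower. Some listed markers were at 0 with vehicle in both genotypes, among them Fcer1a (mast cells), Cd3e (T cells) and C1qa, C1qb and C1qc (macrophages). Other members of the same lists had counts. With vehicle 4 of 9 lymphoid markers reached 1 CPM in each genotype, as did 3 of 8 macrophage markers in mutant and 2 in wild-type cells. Mitochondrial, microRNA and small structural RNA genes took a mean of 21.08 to 27.33% of the counts in the treated mutant groups, against 25.76% in mutant vehicle libraries, and of 13.62 to 15.9% in the treated wild-type groups, against 23.96% in wild-type vehicle libraries. Gata2, whose enhancer was deleted, had 6.62 to 8.06 CPM in mutant vehicle libraries and 35.1 to 54.7 CPM in wild-type ones (log2 fold change -2.53 ± 0.10, edgeR adjusted p = 1.0e-19), and its genotypes did not overlap under any treatment.

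Promoters of 3 tested genes are shown because their RNA differed between genotypes or moved with the agonists, and they were searched for motifs of factors named with the genotype, the agonists or the genes themselves. Each window holds 250 bases before and 50 after the RefSeq start on GRCm38.p6, 5′ to 3′ on the gene's strand, with a motif match in capitals. The windows are chr11:96281655-96281954 on the plus strand for Hoxb8, chr11:19018920-19019219 on the minus strand for Meis1 and chr17:34592009-34592308 on the plus strand for Pbx2. The sequence table used held 6 of the 7 genes. Pbx3, whose RNA also differed between genotypes, had no entry there, so its promoter could not be shown or searched.

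Hoxb8: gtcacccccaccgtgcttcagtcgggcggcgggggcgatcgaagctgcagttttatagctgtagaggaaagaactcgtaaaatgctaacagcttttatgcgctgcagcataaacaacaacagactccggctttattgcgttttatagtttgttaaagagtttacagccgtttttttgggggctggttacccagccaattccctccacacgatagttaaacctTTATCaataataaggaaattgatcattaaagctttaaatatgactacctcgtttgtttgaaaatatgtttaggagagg
Meis1: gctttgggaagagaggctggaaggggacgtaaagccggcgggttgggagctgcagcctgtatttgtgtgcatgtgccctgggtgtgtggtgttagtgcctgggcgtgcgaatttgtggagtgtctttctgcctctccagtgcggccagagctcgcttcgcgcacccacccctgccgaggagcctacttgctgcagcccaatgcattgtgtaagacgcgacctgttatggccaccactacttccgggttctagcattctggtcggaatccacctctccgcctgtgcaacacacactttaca
Pbx2: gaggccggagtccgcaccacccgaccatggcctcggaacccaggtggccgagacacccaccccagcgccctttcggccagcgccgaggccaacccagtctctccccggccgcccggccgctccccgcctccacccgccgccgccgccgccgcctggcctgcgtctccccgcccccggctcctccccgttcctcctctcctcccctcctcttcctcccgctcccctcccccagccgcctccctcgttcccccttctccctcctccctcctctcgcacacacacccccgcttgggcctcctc

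Letters were matched on both strands for GATAA (GATA factors), GAAA followed after 2 bases by GAAA (interferon response element), GGGA followed after 2 bases by TTCC (NF-kB), TGACAG (MEIS) and TGATTNAT (HOX with PBX). The Hoxb8 window held 1 match, TTATC, which is GATAA on the other strand, at position -28 from the start. GATAA occurs in 25.4% of 32851 promoter windows of the same length. The Meis1 and Pbx2 windows held no match to any of these 5 motifs, which says only that these letters are not there. Of the windows not printed, that of Hoxa9 held GATAA at -132 and the second of Hoxa10 held TTATC at 43. The windows shown also differed in base composition. GC content was 42.3% in the Hoxb8 window, with 13 CpG dinucleotides, 58.3% in the Meis1 window, with 15, and 76.0% in the Pbx2 window, with 29.

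The first comparison asked how the progenitors differed without the enhancer before any agonist was added. Mutant cells had much less Pbx3 RNA, less Hoxb8 RNA and more Meis1 RNA, while Pbx2 RNA did not pass the test. With vehicle, 3 of the 4 tested genes passed (1 higher, 2 lower), beside 53.7% of all 14869 genes tested, so the count is near the background. The differences of the 4 genes varied widely in size: 1.7% of tested genes had a lower log2 fold change than Pbx3 and 8.4% a lower one than Hoxb8, against 62.0% for Pbx2 and 86.4% for Meis1. In bulk RNA, fewer cells of a type and less RNA per cell cannot be told apart.

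**Figure D1:**
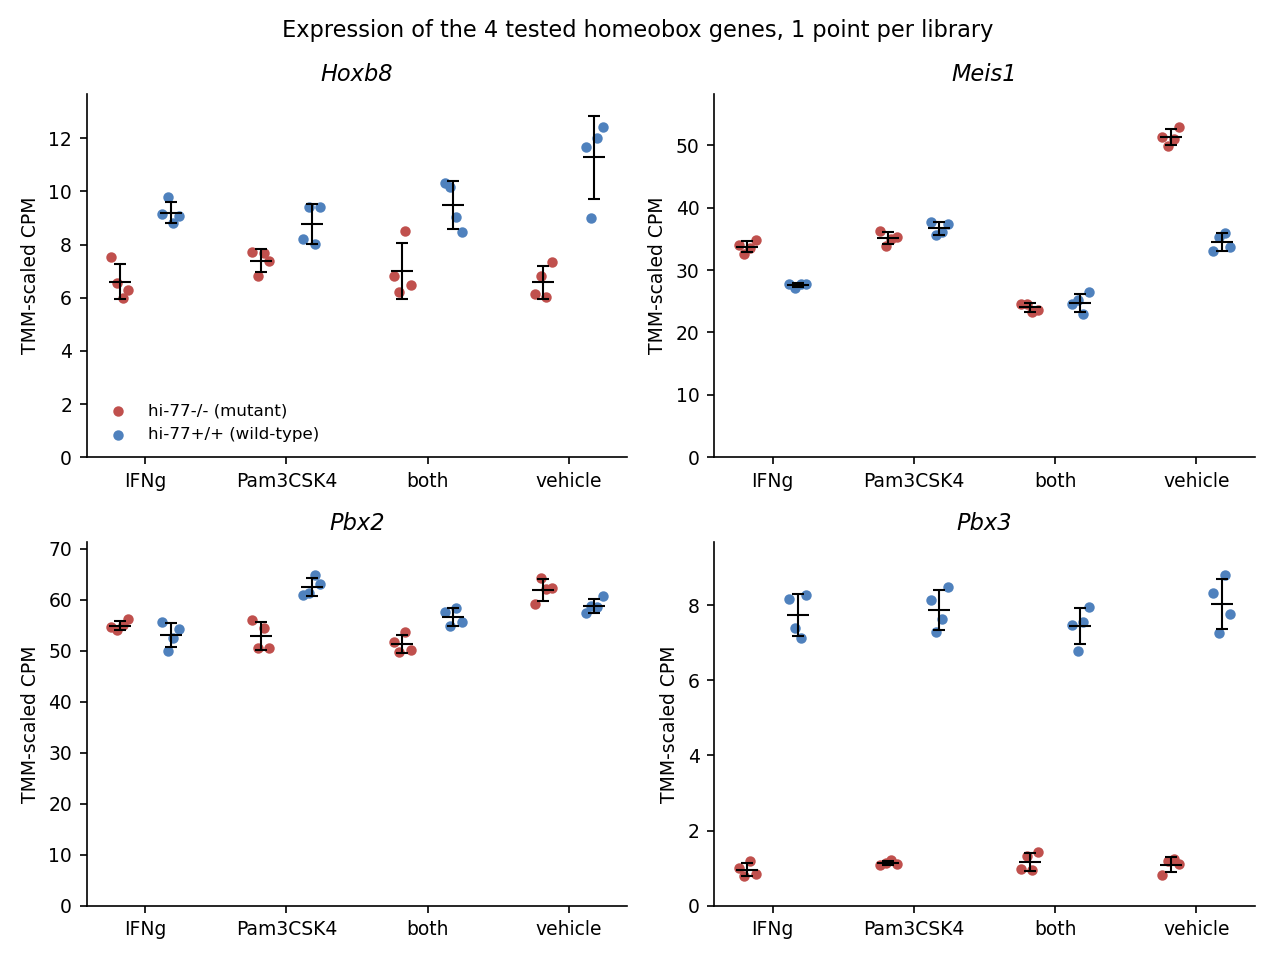
TMM-scaled CPM (y axis, from 0) of Hoxb8, Meis1, Pbx2 and Pbx3 in the mutant and wild-type groups, by treatment, with 1 point per library and bars for the mean ± SD of 4 libraries. Mutant Pbx3 lies at 0.799 to 1.42 CPM, below all wild-type libraries at 6.79 to 8.80 CPM, and mutant Meis1 is highest with vehicle.

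Hoxb8 (ENSMUSG00000056648.5, mm10 chromosome 11, 96281905 to 96285315, plus strand) is the homeobox gene whose protein was used to immortalise the cells. It had 6.13, 6.81, 6.02 and 7.36 CPM in mutant vehicle libraries, against 11.7, 8.99, 12 and 12.4 CPM in wild-type vehicle libraries. The groups did not overlap, and the wild-type library at 8.99 CPM stood nearest to the mutant ones. Hoxb8 was lower in mutant cells by 0.78 on the log2 scale (log2 fold change -0.78 ± 0.10, edgeR adjusted p = 2.0e-08), which is 1.71-fold.

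The gap in Hoxb8 was also present under the agonists. With IFNg it had 7.53, 6.56, 6.001 and 6.31 CPM in mutant libraries and 9.15, 9.77, 8.81 and 9.07 CPM in wild-type libraries (-0.48 ± 0.10, adjusted p = 8.2e-05). With Pam3CSK4 it had 7.73, 6.81, 7.67 and 7.37 CPM in mutant libraries and 8.21, 9.40, 8.02 and 9.40 CPM in wild-type libraries (-0.24 ± 0.10, adjusted p = 0.0297). With both it had 6.83, 6.20, 8.51 and 6.47 CPM in mutant libraries and 10.3, 10.2, 9.03 and 8.46 CPM in wild-type libraries (-0.44 ± 0.10, adjusted p = 2.0e-04). Mutant and wild-type libraries overlapped in the last comparison only. The Pam3CSK4 call is the weakest of these: it was lost without mutant Pam3CSK4 library 2 or 4 or wild-type Pam3CSK4 library 2 or 4 (adjusted p between 0.0521 and 0.0929), and with size factors by relative log expression (-0.22, adjusted p = 0.0507).

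Reads of the endogenous gene and of the ER-HOXB8 transgene cannot be told apart in these counts. Hoxb8 held 15127 of the 15323 counts of all 39 clustered Hox genes, 98.72% (Wilson 95% interval 98.53 to 98.89%, counting error only). Its neighbours in the cluster were nearly silent: Hoxb6 and Hoxb9 had 0 counts in all 32 libraries, Hoxb5 had 2 and Hoxb7 had 5. The abundance-weighted transcript length of Hoxb8 was 1141 bases in 31 of 32 libraries, the length of the shorter transcript model (3 exons, 729 coding bases, 96282725 to 96284693), and 1143.08 bases in mutant vehicle library 4. The longer model has 2635 bases and starts at 96281905, inside the promoter window shown, while the shorter one starts downstream of that window.

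Esr1, the estrogen receptor gene, was followed because the transgene is an estrogen receptor fusion. The species and extent of the fused receptor sequence are not stated in the sources. Esr1 had 0.871 ± 0.163 CPM in mutant and 1.36 ± 0.190 CPM in wild-type vehicle libraries (SD, n = 4 each; log2 fold change -0.65 ± 0.17, edgeR adjusted p = 0.00153). It was lower in mutant cells under each agonist too (-0.41, adjusted p = 0.0316, with IFNg; -0.69, 6.0e-04, with Pam3CSK4; -0.50, 0.00884, with both). No treatment comparison of Esr1 passed the test.

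Hoxa7, a gene of the HoxA cluster often raised together with Hoxa9 in leukaemia (chromosome 6, 52214491 to 52221854, minus strand), was barely detected and was not tested. It had 59 counts in all, 42 in 13 of 16 mutant libraries and 17 in 9 of 16 wild-type libraries. The pooled level was 0.0467 CPM in mutant libraries (Poisson 95% interval 0.0337 to 0.0631, counting error only) and 0.0183 CPM in wild-type libraries (0.0106 to 0.0292). With vehicle the counts were 9, 1, 2 and 4 in mutant libraries and 3, 0, 0 and 0 in wild-type libraries, so a single mutant library holds most of that difference.

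Hoxa9 (52223100 to 52231089) and Hoxa10 (52231197 to 52240854), the HoxA genes best known from leukaemia and stem cell self-renewal, lie next to Hoxa7 on chromosome 6, also on the minus strand. Both had 0 counts in every library, over 1827 M counts in all. A count of 0 allows up to 3 counts, or 0.00164 CPM over all libraries and 0.0121 to 0.0142 CPM in a single group. At this depth neither gene was detectable in either genotype or under any treatment.

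**Figure D2:**
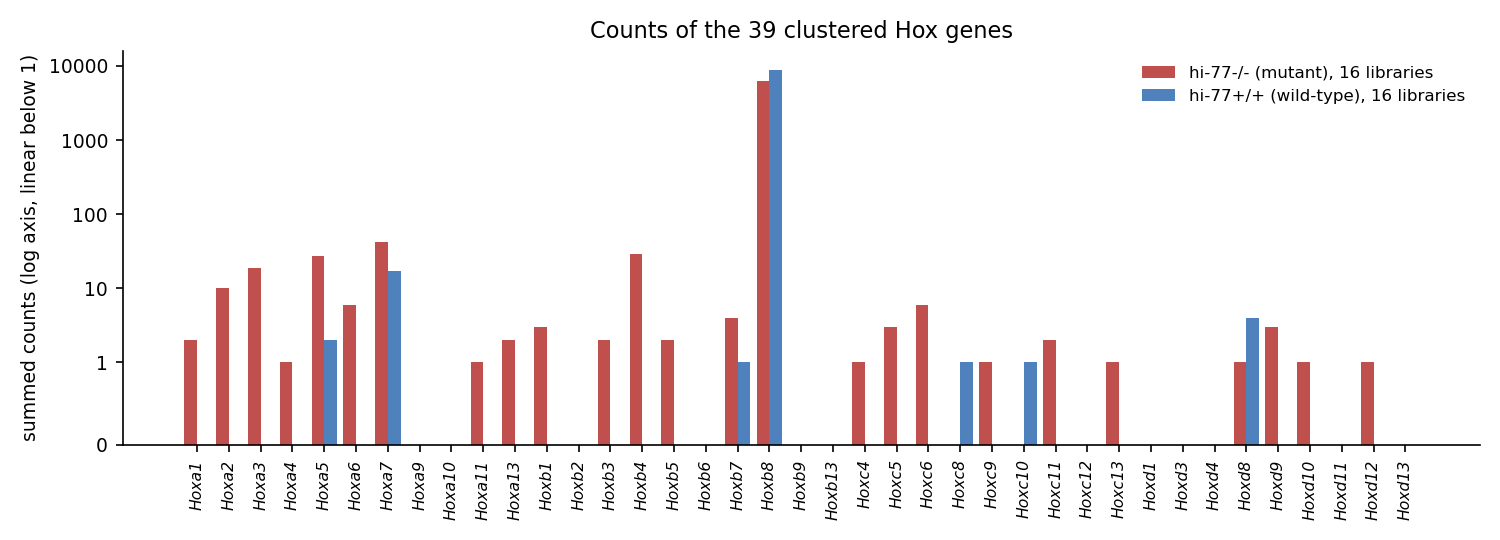
Summed counts (y axis, log above 1 and linear below) of each of the 39 clustered Hox genes in 16 mutant and 16 wild-type libraries. Hoxb8 holds 15127 of 15323 counts, Hoxa9 and Hoxa10 have no bar, and most of the sparse counts of other Hox genes lie in mutant libraries.

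The other 35 clustered Hox genes were all below the filter on low counts, and 25 of them had at least 1 count. Their counts summed to 128 in mutant libraries and 9 in wild-type libraries. All 16 mutant libraries had such counts (1 to 15 per library, median 8), as did 5 of 16 wild-type libraries (0 to 5). Hoxb4, which promotes stem cell expansion, had 29 counts in mutant and 0 in wild-type libraries. Hoxa5 had 27 and 2, Hoxa3 had 19 and 0, and Hoxa2 had 10 and 0. By cluster the mutant and wild-type sums were 68 and 2 for Hoxa, 40 and 1 for Hoxb, 14 and 2 for Hoxc, and 6 and 4 for Hoxd. Mutant libraries also had counts in more genes of the whole table (median 19081, range 17983 to 21034) than wild-type libraries (median 17967.5, range 17427 to 18505), and the part of this in the sparse Hox counts was not tested. Of 15 noncoding genes of the clusters 14 were annotated, and none had more than 3 counts.

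Meis1 (ENSMUSG00000020160.18, chromosome 11, 18879817 to 19018985, minus strand) encodes the TALE cofactor that joins HOX and PBX proteins on DNA and supports stem cell and leukaemia self-renewal. Its RNA was higher in mutant cells with vehicle and with IFNg. It had 51.4, 49.9, 51.0 and 53.0 CPM in mutant vehicle libraries, against 33.0, 35.4, 36.0 and 33.7 CPM in wild-type vehicle libraries. The groups were far apart for their spread, and Meis1 was 1.49-fold higher in mutant cells (log2 fold change 0.57 ± 0.04, edgeR adjusted p = 2.6e-15). With IFNg it had 34.1, 32.5, 33.6 and 34.8 CPM in mutant libraries and 27.8, 27.2, 27.8 and 27.8 CPM in wild-type libraries, again without overlap (0.29 ± 0.04, adjusted p = 6.1e-08).

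With Pam3CSK4 the Meis1 difference did not pass the test. It had 36.2, 33.9, 35.0 and 35.4 CPM in mutant and 37.7, 35.6, 36.2 and 37.4 CPM in wild-type libraries (-0.06 ± 0.04, adjusted p = 0.139). With both agonists it had 24.6, 24.5, 23.3 and 23.6 CPM in mutant and 24.5, 25.2, 23.0 and 26.4 CPM in wild-type libraries (-0.04 ± 0.04, adjusted p = 0.349). Mutant and wild-type libraries overlapped in both comparisons. With a term for the structural RNA share these differences were 0.05 and 0.04, of the opposite sign and also not called.

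Pbx2 (ENSMUSG00000034673.14, chromosome 17, 34591266 to 34597400, plus strand) encodes a widely expressed PBX partner of HOX proteins. With vehicle it had 59.1, 64.2, 62.0 and 62.2 CPM in mutant libraries and 57.3, 58.7, 58.6 and 60.7 CPM in wild-type libraries. The groups overlapped and the difference of 0.07 ± 0.04 did not pass the test (edgeR adjusted p = 0.0973). It passed under other scalings: 0.10 with relative log expression (adjusted p = 0.0263), 0.10 in DESeq2 (0.0203) and 0.09 without the structural RNA genes (0.0353). It also passed without mutant vehicle library 1 (0.10, 0.0452) and without mutant both-agonist library 1 (0.10, 0.0357).

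Under Pam3CSK4 Pbx2 was lower in mutant cells, with 55.9, 50.6, 54.5 and 50.6 CPM in mutant and 60.9, 61.3, 64.8 and 63.0 CPM in wild-type libraries (-0.24 ± 0.04, adjusted p = 1.0e-06). With both agonists it had 51.7, 49.7, 53.7 and 50.2 CPM in mutant and 57.6, 54.8, 58.4 and 55.7 CPM in wild-type libraries (-0.14 ± 0.04, adjusted p = 0.00152). In neither comparison did the libraries overlap. With IFNg Pbx2 averaged 54.9 ± 0.920 CPM in mutant and 53.0 ± 2.42 CPM in wild-type libraries (0.05 ± 0.04, adjusted p = 0.276).

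Pbx3 (ENSMUSG00000038718.15, chromosome 2, 34171457 to 34373142, minus strand) encodes the PBX protein known as a partner of HOXA9 and MEIS1 in leukaemia. It had the largest genotype difference of the 4 tested genes under every treatment. With vehicle it had 0.811, 1.20, 1.25 and 1.11 CPM in mutant libraries, against 8.31, 7.27, 8.80 and 7.77 CPM in wild-type libraries. The highest mutant library was far below the lowest wild-type one, and Pbx3 was 7.39-fold lower in mutant cells (log2 fold change -2.89 ± 0.12, edgeR adjusted p = 4.8e-21).

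The same gap in Pbx3 was seen in the treated groups. It averaged 0.962 ± 0.179 CPM in mutant and 7.74 ± 0.554 CPM in wild-type cells with IFNg (-2.99 ± 0.12, adjusted p = 2.6e-21). With Pam3CSK4 it averaged 1.14 ± 0.0585 CPM in mutant and 7.88 ± 0.531 CPM in wild-type cells (-2.79 ± 0.12, 1.3e-20), and with both agonists 1.16 ± 0.239 and 7.44 ± 0.483 CPM (-2.68 ± 0.12, 3.0e-20). The fold ranged between 6.42 and 7.92, and counts per library between 38 and 87 in mutant and between 326 and 622 in wild-type libraries. With vehicle the summed mast cell and erythroid markers were lower in mutant libraries (64.0 to 73.3 against 335 to 388 CPM, and 359 to 396 against 545 to 669 CPM). With Pam3CSK4 the erythroid sums overlapped, at 490.1 to 596.1 CPM in mutant and 523.8 to 558.5 CPM in wild-type libraries. There 10 of 11 tested erythroid markers were lower in mutant cells and 1 was higher. Gene by gene, 11 of 11 tested erythroid markers were lower in mutant vehicle cells, with a median log2 fold change of -6.21, as were 6 of 6 tested mast cell and basophil markers, with a median of -4.24. The part of such cells in the Pbx3 difference was not tested.

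Under the agonists, 3 of 4 tested genes passed between genotypes with IFNg (1 higher, 2 lower), beside 53.1% of all tested genes (25.7% higher, 27.4% lower). With Pam3CSK4 0 were higher and 3 lower, beside 65.6% (32.1% higher, 33.5% lower), and with both agonists 0 were higher and 3 lower, beside 60.2% (30.5% higher, 29.7% lower). Shares of 3 in 4 are near the background in each.

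**Figure D3:**
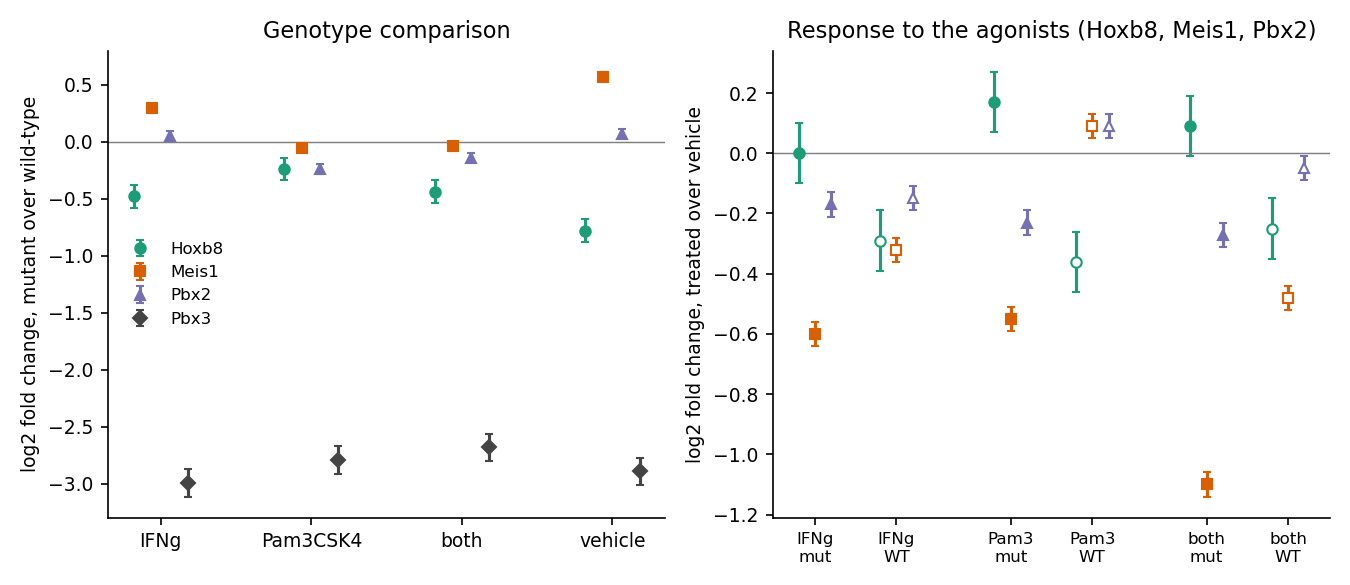
Left: log2 fold change, mutant over wild-type (y axis), of the 4 tested genes in each treatment. Right: log2 fold change, agonist over vehicle (y axis), of Hoxb8, Meis1 and Pbx2 in mutant cells (filled) and wild-type cells (open); bars are the SE of the edgeR fit, and mutant Meis1 with both agonists is lowest at -1.10 while wild-type Meis1 with Pam3CSK4 lies at 0.09.

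The next comparisons asked how each genotype answered 4 h of agonist. Meis1 fell in mutant cells with each agonist and most with both, and in wild-type cells it fell with IFNg and with both, while its Pam3CSK4 change did not pass. Pbx2 fell by less, with all 3 treatments in mutant cells and with IFNg in wild-type cells. Hoxb8 fell slightly in the wild-type groups, a result that depends on the model, and Pbx3 passed in no treatment comparison. In mutant cells 2 of 4 tested genes passed with each treatment, all lower. Of all tested genes 33.2% passed with IFNg (18.3% higher, 14.9% lower), 24.3% with Pam3CSK4 (11.5% higher, 12.8% lower) and 43.8% with both (23.7% higher, 20.1% lower). In wild-type cells 3 of 4 passed with IFNg, 1 with Pam3CSK4 and 2 with both, all lower. Of all tested genes 35.4% passed with IFNg (17.8% higher, 17.6% lower), 22% with Pam3CSK4 (10.4% higher, 11.7% lower) and 43.7% with both (21.2% higher, 22.4% lower).

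In mutant cells Meis1 averaged 33.8 ± 0.925 CPM with IFNg, 35.1 ± 0.969 with Pam3CSK4, 24.01 ± 0.646 with both and 51.3 ± 1.296 with vehicle (SD, n = 4 each). Every treated library was below every vehicle library. Meis1 was 1.52-fold lower with IFNg (log2 fold change -0.60 ± 0.04, edgeR adjusted p = 2.0e-15), 1.46-fold lower with Pam3CSK4 (-0.55 ± 0.04, 7.0e-14) and 2.14-fold lower with both (-1.10 ± 0.04, 5.7e-23). In the last comparison 2.1% of all tested genes had a lower log2 fold change.

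In wild-type cells Meis1 averaged 27.6 ± 0.302 CPM with IFNg, 36.7 ± 1.01 with Pam3CSK4, 24.8 ± 1.45 with both and 34.5 ± 1.41 with vehicle. It fell with IFNg (-0.32 ± 0.04, adjusted p = 2.9e-08) and with both (-0.48 ± 0.04, 1.6e-12). With Pam3CSK4 the libraries overlapped with vehicle and the difference of 0.09 ± 0.04 did not pass (adjusted p = 0.0956); it passed without wild-type vehicle library 3 (0.11, adjusted p = 0.0422).

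The responses of Meis1 themselves differed between genotypes, by a test of the interaction. The mutant response minus the wild-type response was -0.28 ± 0.05 for IFNg (adjusted p = 0.00195), -0.64 ± 0.05 for Pam3CSK4 (8.0e-11) and -0.61 ± 0.05 for both (1.8e-10). The higher mutant level with vehicle enters each of these differences, since all 3 share the vehicle libraries. Meis1 was the single one of the 4 tested genes that passed for IFNg, where 1.65% of all genes passed (0.827% higher, 0.82% lower).

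Pbx2 in mutant cells averaged 54.9 ± 0.920 CPM with IFNg, 52.9 ± 2.73 with Pam3CSK4, 51.3 ± 1.81 with both and 61.9 ± 2.13 with vehicle. No treated library reached the lowest vehicle library. The log2 fold changes were -0.17 ± 0.04 (edgeR adjusted p = 4.0e-04), -0.23 ± 0.04 (1.7e-05) and -0.27 ± 0.04 (2.4e-07). In wild-type cells Pbx2 averaged 53.0 ± 2.42 CPM with IFNg, 62.5 ± 1.79 with Pam3CSK4, 56.6 ± 1.69 with both and 58.8 ± 1.39 with vehicle. It fell with IFNg (-0.15 ± 0.04, adjusted p = 0.0022), while 0.09 with Pam3CSK4 (0.0895) and -0.05 with both (0.254) did not pass. The genotypes differed in the response to Pam3CSK4 (-0.31 ± 0.05, adjusted p = 4.9e-05) and to both (-0.22 ± 0.05, 0.00471), and the difference for IFNg was -0.02 (0.899).

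Hoxb8 in wild-type cells averaged 9.20 ± 0.406 CPM with IFNg, 8.76 ± 0.748 with Pam3CSK4, 9.50 ± 0.903 with both and 11.3 ± 1.56 with vehicle. Treated and vehicle libraries overlapped in each comparison. It fell with IFNg (-0.29 ± 0.10, edgeR adjusted p = 0.0162), Pam3CSK4 (-0.36 ± 0.10, 0.00626) and both (-0.25 ± 0.10, 0.0356). The structural RNA share moved with treatment in the same cells, with means of 15.9%, 14.84% and 13.62% against 23.96% with vehicle. With that share as a term the changes were -0.08 (0.683), -0.13 (0.815) and 0.02 (0.927), and without wild-type vehicle libraries 1 and 4 they were -0.19 (0.232), -0.26 (0.175) and -0.14 (0.354), so none passed in either fit.

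Mutant Hoxb8 averaged 6.60 ± 0.661 CPM with IFNg, 7.40 ± 0.423 with Pam3CSK4, 7.003 ± 1.04 with both and 6.58 ± 0.623 with vehicle, and none of these changes passed (0.00, adjusted p = 0.989; 0.17, 0.235; 0.09, 0.506). The genotypes differed in the Pam3CSK4 response of Hoxb8 (0.53 ± 0.14, adjusted p = 0.00394), a difference that was 0.25 (0.364) with the structural RNA share as a term. The differences for IFNg (0.30, adjusted p = 0.328) and for both (0.33, 0.0947) did not pass. In all, 3 of the 4 tested genes passed for the Pam3CSK4 response (1 higher, 2 lower), beside 26.6% of all genes (14.3% higher, 12.3% lower). For the combined response 2 passed (0 higher, 2 lower), beside 15.8% (8.8% higher, 6.99% lower). For Pbx3 the treatment changes lay between -0.16 and 0.09 in both genotypes and none passed.

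Levels were compared between genes on the deposited TPM scale, which accounts for transcript length. In every group the TPM of Pbx2 was highest and that of Pbx3 lowest of the 4 tested genes, with no overlap with the next gene. In mutant vehicle cells Pbx2 averaged 7.13 ± 0.600 TPM, Meis1 4.78 ± 0.546, Hoxb8 2.22 ± 0.373 and Pbx3 0.140 ± 0.0283 TPM. In wild-type vehicle cells Pbx2 averaged 7.78 ± 1.47 TPM, Hoxb8 3.87 ± 0.506, Meis1 3.37 ± 0.735 and Pbx3 1.04 ± 0.192 TPM. Hoxb8 and Meis1 were neighbours that overlapped in wild-type cells with vehicle, IFNg and Pam3CSK4 and in mutant cells with both agonists. Within single libraries, Hoxb8 TPM lay above Meis1 TPM in every wild-type IFNg library and below it in every wild-type Pam3CSK4 library. The order varied between libraries in wild-type cells with vehicle and in mutant cells with both agonists. Meis1 TPM lay above Hoxb8 TPM without overlap in mutant cells with IFNg, Pam3CSK4 and vehicle, and below it in wild-type cells with both. TPM was not compared across groups, since the structural RNA share takes part of each library's total.

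**Figure D4:**
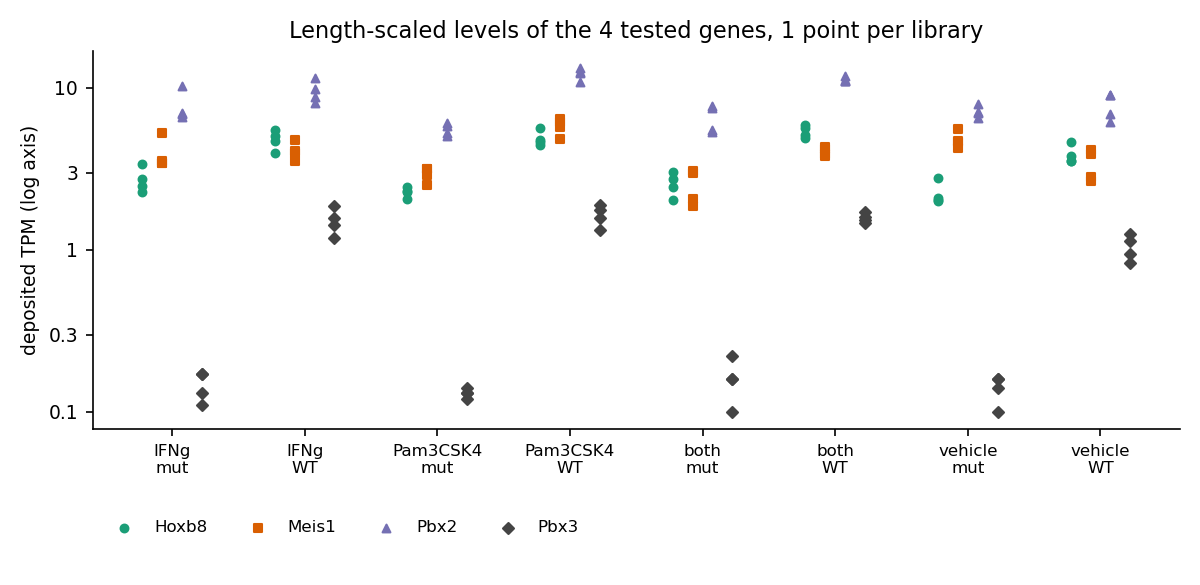
Deposited TPM (y axis, log scale) of the 4 tested genes in each of the 8 groups, with 1 point per library (mut, mutant; WT, wild-type). Pbx2 is highest and Pbx3 lowest in every group, and in mutant vehicle libraries Meis1 (4.25 to 5.54 TPM) lies above Hoxb8 (2.01 to 2.78 TPM).

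Transcript mix was read from the abundance-weighted transcript length, and no difference passed after adjustment, which the design made hard to reach. The smallest exact p for 4 against 4 libraries is 0.0286, and after adjustment over the 4 genes of a treatment at least 3 of them would have to reach it together. In Pam3CSK4 cells Meis1 had 3587.2 ± 30.7 bases in mutant and 3444.9 ± 39.5 bases in wild-type libraries, and Pbx2 had 2897.7 ± 22.2 and 2807.5 ± 41.0 bases. Both had that smallest two-sided permutation p (exact p = 0.0286, adjusted p = 0.0571), with no overlap between genotypes. With both agonists Meis1 had 3499.2 ± 23.7 bases in mutant and 3411.7 ± 28.3 bases in wild-type libraries, also without overlap (exact p = 0.0286, adjusted p = 0.1143). The Meis1 gap had the same direction with vehicle (34.3 bases, exact p = 0.1714) and with IFNg (58.5 bases, exact p = 0.1143). With vehicle the Pbx2 lengths were 2885.3 ± 74.6 bases in mutant and 2629.2 ± 145.5 bases in wild-type libraries (exact p = 0.0571, adjusted p = 0.2286).

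Shared reads limit 2 of these genes, whose expected counts were partly not whole. Meis1 overlaps 3 other gene models on its own strand, chosen by position after values were seen. Gm37818 had 1.55 CPM in mutant and 0.894 CPM in wild-type vehicle cells (log2 fold change 0.78, edgeR adjusted p = 0.00339) and fell by 1.08 in mutant cells with both agonists (1.4e-04). In that comparison 2900018N21Rik fell by 1.70 (5.5e-06) and 2610001A08Rik fell by 1.12 (6.7e-04). With Pam3CSK4 2610001A08Rik was lower in mutant cells (-0.72, 0.0102), where Meis1 did not pass. Gpsm3 overlaps the start of Pbx2 on the same strand. It was lower in mutant vehicle cells (-0.29, adjusted p = 6.7e-04), where Pbx2 did not pass.

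The genes most like Meis1 and Pbx3 over the 8 group means were found among 8953 protein-coding genes by the root-mean-square log2 difference of centred profiles, as a description. For Meis1, whose profile spans 1.1 on the log2 scale, they were Pkd1 (0.077), Slc29a3 (0.077) and Fzd5 (0.097). For Pbx3, spanning 3.03, they were Maoa (0.093), Hdc (0.114), the histamine-forming enzyme of mast cells and basophils, and Elane (0.139), neutrophil elastase. Hoxb8 and Pbx2 spanned 0.77 and 0.28 and were given no neighbours.

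The relatives of MEIS and PBX were then described with the same fit, as a list of 15 other TALE homeobox genes and the PBX-interacting protein gene Pbxip1. Of these 16 genes 7 were tested. With vehicle 5 were higher and 2 lower in mutant cells (median log2 fold change 0.21), beside 24.4% of all genes higher and 29.3% lower (median -0.01). Under IFNg 5 were higher and 2 lower, beside 25.7% and 27.4% of all genes. Under Pam3CSK4 2 were higher and 2 lower, beside 32.1% and 33.5%, and under both 3 and 2, beside 30.5% and 29.7%.

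Tgif1, which encodes a TALE repressor, had 34.7 ± 2.00 CPM in mutant and 20.7 ± 0.995 CPM in wild-type vehicle cells (log2 fold change 0.74, edgeR adjusted p = 4.4e-16). In mutant cells it fell by 0.21 with IFNg (2.8e-04), by 0.43 with Pam3CSK4 (3.6e-09) and by 0.51 with both (1.5e-11). Tgif2, a close relative, was higher in mutant vehicle cells too (0.21, 2.4e-04). Pbxip1 had 22.0 ± 0.702 CPM in mutant and 14.4 ± 0.773 CPM in wild-type vehicle cells (0.61, 1.1e-11). It fell in mutant cells by 0.76 with IFNg (1.7e-13), by 0.55 with Pam3CSK4 (9.4e-10) and by 1.17 with both (8.5e-19), and in wild-type cells by 0.60 with IFNg (2.0e-10) and by 0.72 with both (1.5e-12).

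The Pam3CSK4 response of Tgif1 was lower in mutant than wild-type cells by the interaction test (-0.56, adjusted p = 9.5e-08), as were those of Pbxip1 (-0.51, 1.2e-05) and Tgif2 (-0.22, 0.01). For both agonists the difference was -0.55 (1.3e-07) for Tgif1 and -0.44 (1.7e-04) for Pbxip1. None of the 7 passed for IFNg (Tgif1 -0.23, 0.0621; Pbxip1 -0.16, 0.37). Irx2 and Pknox1 were also higher in mutant vehicle cells, and their Pam3CSK4 differences of 0.00 (adjusted p = 0.984) and -0.14 (0.118) did not pass. The vehicle libraries enter both the vehicle comparison and each of these differences. Pbxip1, Tgif1 and Tgif2 were picked for the plot with Meis1 after their values were seen.

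**Figure D5:**
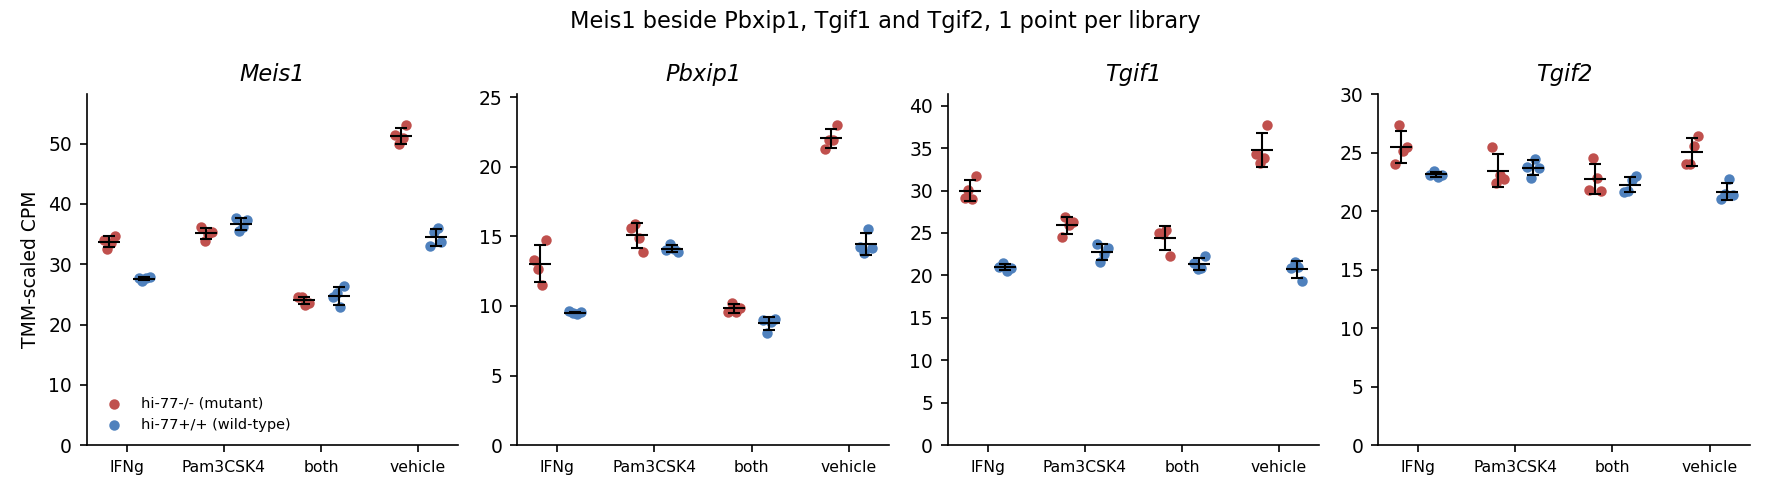
TMM-scaled CPM (y axis, from 0) of Meis1, Pbxip1, Tgif1 and Tgif2 by treatment in mutant and wild-type cells, with 1 point per library and bars for the mean ± SD of 4 libraries. With vehicle the mutant means stand above the wild-type ones, for Meis1 at 51.3 against 34.5 CPM and for Pbxip1 at 22.0 against 14.4 CPM.

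Other members of the TALE list moved apart. Irx2, an Iroquois gene, had 21.5 CPM in mutant and 16.9 CPM in wild-type vehicle cells (0.35, adjusted p = 1.7e-06), and Irx5 had 0.271 and 0.706 CPM (-1.36, 5.1e-06). Pbx4 was lower in mutant cells with vehicle (1.503 against 2.398 CPM; -0.67, 1.3e-05) and under each agonist treatment (-0.51 to -0.81). Pknox1, a close relative of Meis1, was slightly higher with vehicle (0.12, 0.0281). Of genes below the filter, Meis2 had 6 counts in mutant and 0 in wild-type libraries, and Meis3 had 38 and 126.

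Genes known to act upstream of HOX and MEIS loci include the MLL complex and Polycomb genes. Of 20 genes of the MLL and DOT1L activator complexes, 2 were higher and 11 lower in mutant vehicle cells (median -0.20), beside 24.4% of all genes higher and 29.3% lower. Mllt3, a reader that brings DOT1L to chromatin, had 78.6 CPM in mutant and 63.4 CPM in wild-type cells (0.31, adjusted p = 1.7e-10), while Ell (-0.72, 2.6e-13) and Aff1 (-0.52, 6.5e-08), both of the elongation complex, and the methyltransferase gene Kmt2b (-0.48, 1.1e-04) were lower. Of 20 Polycomb genes, whose products keep silent Hox clusters repressed, 6 were higher and 8 lower (median -0.02), beside the same shares of all genes. Cbx2 had 30.7 CPM in mutant and 19.8 CPM in wild-type cells (0.63, 4.9e-12) and Bmi1 was higher (0.32, 1.1e-07), while Phc1 (-1.04, 5.2e-14) and Phf19 (-0.77, 1.1e-12) were lower. Of 3 tested upstream factors, Msi2 was higher (0.28, 9.9e-10), and Nsd1 (-0.20, 1.0e-04) and Nup98 (-0.14, 0.00279) were lower.

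Of 20 genes listed as HOXA9 and MEIS1 targets, 15 were higher and 1 lower in mutant vehicle cells (median 0.25), beside 24.4% of all genes higher and 29.3% lower. Of the 20, Cd34, Flt3 and Myb are also on the progenitor list. This list, like the others, was written by hand with earlier results of these data known. Its counts are a description and no independent test. Mef2c, a transcription factor of lymphoid and leukaemic progenitors, had 117 CPM in mutant and 33.9 CPM in wild-type cells (1.78, adjusted p = 5.7e-27). The chemokine gene Ccl3 (1.35, 2.7e-19) and the kinase gene Camk2d (1.00, 1.6e-15) were higher too. Igf1r, the growth factor receptor, was the single gene lower, with 11.7 CPM in mutant and 63.9 CPM in wild-type cells (-2.45, 2.7e-19). Between genotypes with IFNg, 16 of the 20 were higher and 1 lower (median 0.27), beside 25.7% and 27.4% of all genes. With Pam3CSK4 13 were higher and 4 lower in mutant cells (0.26), beside 32.1% and 33.5%. In both-agonist cells the counts were 15 and 3 (0.28), beside 30.5% and 29.7%. Meis1 itself did not pass between genotypes in these last 2 comparisons. With both agonists 8 of the 20 rose and 9 fell in mutant cells, beside 23.7% and 20.1% of all genes, and 11 rose and 6 fell in wild-type cells, beside 21.2% and 22.4%. The kinase gene Pim1 reached 227 CPM with both agonists against 15.9 CPM with vehicle in mutant cells (3.84, 9.4e-36), and it rose in wild-type cells as well (3.45, 2.7e-34), while Sox4, a progenitor transcription factor, fell by 0.70 in mutant cells (8.2e-21).

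Among Polycomb genes, Cbx8 and Cbx2 fell with both agonists in both genotypes, by 1.16 (adjusted p = 4.6e-14) and 1.03 (2.1e-17) in mutant cells and by 0.87 (1.1e-10) and 0.63 (4.6e-11) in wild-type cells. Phc2 rose by 0.62 in mutant cells (1.7e-12) and by 0.29 in wild-type cells (1.7e-05). Of 30 other homeobox genes 23 were tested, and 8 were higher and 7 lower in mutant vehicle cells (median 0.06), beside 24.4% and 29.3% of all genes. Pou2f2, the octamer factor of B cells, had 3.14 CPM in mutant and 0.644 CPM in wild-type cells (2.30, 9.4e-15). With both agonists Pou2f2 rose by 2.31 in mutant cells (1.2e-17) and by 2.15 in wild-type cells (2.2e-13).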

How the data were processed

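The submitters' processing notes name STAR 2.5.2b, RSEM 1.3.0 and the build mm10. RSEM assigns a read shared by several genes in fractions. The deposited gene tables, 1 per library, hold expected counts, TPM and an abundance-weighted transcript length in bases, per the file headers. The authors' TPM values per gene were used only to compare genes within a group. The sources used here give neither annotation release nor read filters. Libraries were stranded and made from total RNA depleted of ribosomal RNA, per the labels' protocols. Of 55487 gene identifiers, 55394 matched GENCODE vM21 when versions were ignored (55094 with the version), which gave symbols, mm10 coordinates and transcript models. Promoter sequences came from RefSeq on GRCm38.p6.

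The deposited expected counts were rounded (11.07% of non-zero values were not within 0.005 of a whole number). The filter filterByExpr of edgeR on the 8 groups kept 14869 genes and removed 40618. After TMM scaling of library sizes, a robust quasi-likelihood model of edgeR was fitted to all 32 libraries (24 residual degrees of freedom, common biological coefficient of variation 7.22%). From it 13 contrasts were tested, with p-values adjusted by Benjamini-Hochberg over all tested genes within each contrast, and an adjusted p under 0.05 passed. The script was tested on simulated counts. CPM values are TMM-scaled means ± SD of 4 libraries, and log2 fold changes are ± SE. Weighted lengths were compared by exact two-sided permutation over 70 assignments, adjusted over 4 genes.

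The rule names all 7 members, Gata2, the ER-HOXB8 companion genes, every detected other clustered Hox or TALE gene, and, from each further list, up to 3 rises and 3 falls of largest size with vehicle (2 of each with agonists) at 1 CPM or more. Not all of them are printed. Gene models overlapping Meis1 and Pbx2 were named after their values were seen. A few further items of these lists and searches are not reported here. Members and lists were chosen with earlier results of these data known. No 2 libraries of a group agreed within sampling noise (lowest chi-square per degree of freedom 3.51). Alternatives were relative log expression scaling, DESeq2, no count filter, a replicate block, the structural RNA share (5187 genes) as a term, those genes removed, wild-type vehicle libraries 1 and 4 left out, the groups of a contrast alone, and each library left out. Tools were R 4.3.3, edgeR 4.0.16, limma 3.58.1, DESeq2 1.42.0, Python 3.11.15, matplotlib 3.10.9, pandas 2.3.3, scipy 1.17.1 and numpy 2.4.6.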

Additional observations from a re-analysis of the deposited data

Results flagged for a closer look

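Responses to an agonist that differed between genotypes, by the interaction test in edgeR, were found for 3 genes. For Meis1 the mutant response minus the wild-type response was -0.28 for IFNg, -0.64 for Pam3CSK4 and -0.61 for both on the log2 scale. For Pbx2 it was -0.31 for Pam3CSK4 and -0.22 for both. For Hoxb8 it was 0.53 for Pam3CSK4, but 0.25 (edgeR adjusted p = 0.364) with the structural RNA share as a term, where it did not pass. In wild-type IFNg cells, Meis1 library 2 stood apart from the other 3, at 27.2 CPM against 27.8 CPM, with a gap of 0.894 of the group's whole range. The limit used for such a gap is one that chance passes in about 1 in 20 groups.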

How the results depend on the processing

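Of 52 log2 fold changes of the 4 tested genes, 50 or more kept their direction and side of the threshold with relative log expression scaling (50), DESeq2 (51), no count filter (52), the groups of a contrast alone (51) and structural RNA genes removed (51). The replicate numbers do not pair the samples (same-number correlations -0.24 to 0.23, median 0.01), and with the replicate block all 52 were kept, with 3 members and 7917 genes called between genotypes with vehicle. With the structural RNA share as a term 3 turned sign: Meis1 between genotypes with Pam3CSK4 (0.05) and with both (0.04), and Hoxb8 with both in wild-type cells (0.02), and 46 were kept. Without wild-type vehicle libraries 1 and 4, whose structural RNA shares were highest in their group (25.83 and 28.78%), 49 were kept. The 32 fits that each left out 1 library gave 1664 values, of which 1642 were kept and 6 turned sign, none of them a change that had passed. Their ranges were -0.08 to 0.02 for wild-type Pbx3 with Pam3CSK4, -0.05 to 0.14 for mutant Pbx3 with Pam3CSK4, -0.03 to 0.17 for mutant Pbx3 with both, -0.02 to 0.15 for mutant Hoxb8 with both, and -0.03 to 0.17 for the Pam3CSK4 difference of Pbx3. The weighted-length difference of Pbx3 was -2.8 bases with both agonists against 2.0 with vehicle, and ranged between -5.7 and 7.4 bases with 1 library left out. The cause of these changes was not tested.

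Members called in wild-type cells with Pam3CSK4 numbered 1, and 0 with the structural RNA term or without wild-type vehicle libraries 1 and 4 (1 to 2 with 1 library left out, 2 without wild-type vehicle library 3). With both agonists they numbered 2, and 1 with that term, without those 2 libraries, and on the groups of the contrast alone (1 to 2 with 1 left out). The call of Hoxb8 with both was lost without any of mutant both-agonist library 1, wild-type both-agonist libraries 3 and 4, and wild-type vehicle libraries 1, 3 and 4, and its IFNg call without wild-type vehicle library 4 (adjusted p = 0.0709). The combined difference of Hoxb8 passed without mutant both-agonist library 2 (0.39, 0.0494) or wild-type vehicle library 2 (0.43, 0.0201).

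Over all genes, the wild-type IFNg response had 5265 calls, and 2794 with the structural RNA term, and the wild-type response to both had 6491, and 3640 with it. The wild-type Pam3CSK4 response had 3277, against 176 with that term, 648 without wild-type vehicle libraries 1 and 4, 2057 on its own groups and 2048 to 4099 with 1 library left out (2048 without wild-type vehicle library 4). The IFNg difference had 245, against 127 on its own groups, 400 in DESeq2 and 136 to 382 with 1 left out. The Pam3CSK4 difference had 3956, against 1212 with the term and 2444 without those 2 libraries, and the combined difference 2347, against 1380 with the term. Depth limits Hoxa7, Hoxa9, Hoxa10 and the other Hox genes, which could not be tested.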
